A study of Mus musculus with 3 samples.

Results

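The genes of the unfolded protein response and the amino acid response were followed in CT26 mouse colon carcinoma cells with and without extra miR-17~92. A list of 45 genes, chosen with earlier results of these data known, defined the set. A gene entered through the probe sets that the platform annotation gives to it alone, averaged where there was more than 1. This held for 43 of the 45 genes, out of 19938 genes on the array. Pycr1 was not matched to a probe set and is not analysed here. The only probe set of Aars also belonged to Exosc6 and read 8.92 in every column, so no value is given to the gene.

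The cells had been transfected with a PIG vector for a control microRNA (miR-Ctrl, Ctrl in what follows) or with PIG-miR-17~92 WT. All were selected in puromycin, sorted for GFP and grown up from single cells, in RPMI1640 with 10% fetal bovine serum. Lines with medium (miR-17~92Med, Med) and high (miR-17~92Hi, Hi) levels of the cluster were compared with Ctrl. The design names 3 subclones a group, but each group has 1 column of deposited log2 values, and whether a column is 1 subclone, a pool or a mean was not given in the sources used here. There was therefore no replicate, no SD and no test, and each difference below describes these columns alone. In bulk RNA, fewer cells with a transcript and less of it per cell cannot be told apart.

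Cells answer misfolded protein in the endoplasmic reticulum (ER) through sensors in its membrane, among them Ern1 (IRE1), Eif2ak3 (PERK) and Atf6. Ern1 splices the Xbp1 message, Atf6 is cut to release a transcription factor, and both lead to more chaperones. Eif2ak3 phosphorylates the translation factor eIF2, as Eif2ak4 (GCN2) does when amino acids are short, and this favours translation of Atf4. Atf4 and its target Ddit3 (CHOP) then drive genes of amino acid uptake and synthesis, tRNA charging and, under lasting stress, feedback and cell death. Much of this control acts on splicing, cleavage and translation, which probe sets for whole transcripts do not read.

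Facts of the columns bear on every comparison with Ctrl. The interquartile range of all probe sets was 2.42 in Ctrl, 3.12 in Med and 3.08 in Hi. Across probe sets, which are not replicates, Ctrl correlated at r = 0.787 with Med and 0.795 with Hi, and Med at 0.992 with Hi. Receptor genes for smell and pheromones served as a gauge of background, and a level at or under their 95th percentile (6.87 in Ctrl, 6.18 in Med and 6.20 in Hi) is called within the receptor range. Of 12 epithelial and colon markers, 6 were within this range in each column, with Epcam, Vil1, Cdx2, Krt20 and Lgr5 there in all of them. Of those above it, Krt18 read 7.97, 11.41 and 12.28 in this order of columns (Ctrl, Med, Hi, as in every series of 3 levels below), Krt8 8.92, 7.28 and 7.32, and Cdx1 8.95, 7.24 and 7.45. The mesenchymal markers were divided too, with Vim (11.94, 13.89 and 13.63) and Pdgfra (7.26, 9.79 and 10.27) higher than Ctrl, and Col1a1 (8.76, 7.44 and 7.57), Col1a2 (8.60, 7.29 and 7.37) and Pdgfrb (7.34, 6.13 and 6.11) lower. Of the immune markers, Ptprc, Itgam and Lyz2 were within the range in every column, while Cd3e (7.95, 6.61 and 6.73) was above it. The endothelial markers were divided as well. Kdr was within the range in every column, and Pecam1 (7.28, 6.24 and 6.24) and Cdh5 (7.34, 6.43 and 6.40) were above it.

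The promoters of the listed genes held different motifs of the response. RefSeq windows of 300 bases, from 250 before to 50 after a gene's start (build GRCm38.p6), were given for 35 of the 43 genes. They were searched on both strands for the ER stress element, which is CCAAT and CCACG with 9 bases between them and is bound by ATF6 with NF-Y. This element was in the windows of 4 listed genes, 11.4%, and in those of 0.137% of all 27025 genes with a window. The genes were Hspa5, Hsp90b1, Pdia6 and Dnajc3, all of which act on folding in the ER. Their 250 upstream bases are shown because these genes differed from Ctrl together. They are written 5′ to 3′ on the gene's strand, with the element's fixed bases in capitals:
Hspa5, chr2:34771840-34772089, + strand: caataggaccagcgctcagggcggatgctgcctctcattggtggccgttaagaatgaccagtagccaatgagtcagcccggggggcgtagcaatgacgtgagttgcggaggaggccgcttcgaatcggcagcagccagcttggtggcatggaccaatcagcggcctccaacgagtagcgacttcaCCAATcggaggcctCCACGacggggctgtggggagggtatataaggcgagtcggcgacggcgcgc
Hsp90b1, chr10:86705445-86705694, - strand: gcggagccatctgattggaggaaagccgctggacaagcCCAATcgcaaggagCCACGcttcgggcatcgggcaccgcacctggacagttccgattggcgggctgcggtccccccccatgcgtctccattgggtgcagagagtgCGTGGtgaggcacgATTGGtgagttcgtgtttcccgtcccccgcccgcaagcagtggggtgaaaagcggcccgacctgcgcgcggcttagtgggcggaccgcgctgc
Pdia6, chr12:17266339-17266588, + strand: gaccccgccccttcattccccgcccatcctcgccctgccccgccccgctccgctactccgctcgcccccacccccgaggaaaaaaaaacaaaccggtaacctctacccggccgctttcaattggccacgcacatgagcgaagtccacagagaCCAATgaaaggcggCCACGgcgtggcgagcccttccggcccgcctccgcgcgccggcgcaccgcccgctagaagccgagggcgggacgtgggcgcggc
Dnajc3, chr14:118937682-118937931, + strand: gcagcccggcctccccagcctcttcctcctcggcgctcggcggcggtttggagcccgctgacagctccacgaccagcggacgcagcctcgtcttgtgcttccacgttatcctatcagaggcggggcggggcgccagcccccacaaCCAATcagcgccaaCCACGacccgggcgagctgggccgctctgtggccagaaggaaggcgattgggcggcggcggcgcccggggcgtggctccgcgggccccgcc
The element ended 47 bases before the start in Hspa5, 80 in Pdia6 and 87 in Dnajc3. Hsp90b1 held 2 copies, 1 on each strand.

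The core of the CHOP-ATF4 composite element, TGATGCAA, was in the windows of 6 listed genes, 17.1%, against 1.03% of all genes. These were Atf3, Chac1, Vldlr, Fgf21, Slc1a4 and Herpud1, and in each the match lay on the strand opposite to the gene, so it reads TTGCATCA. In the forms searched, none of the 35 genes held both elements. The motif TGACGTGG of XBP1 and ATF6 was in 0 of 35 windows (0.714% of all genes). Other spacings and orientations of CCAAT and CCACG were not searched. The Herpud1 bases below hold ATTGG, which is CCAAT on the other strand, and CCACG closer together than in the searched form. The upstream bases of Atf3, Chac1 and Herpud1 are shown for the contrast with the chaperones, with the match in capitals:
Atf3, chr1:191183334-191183583, - strand: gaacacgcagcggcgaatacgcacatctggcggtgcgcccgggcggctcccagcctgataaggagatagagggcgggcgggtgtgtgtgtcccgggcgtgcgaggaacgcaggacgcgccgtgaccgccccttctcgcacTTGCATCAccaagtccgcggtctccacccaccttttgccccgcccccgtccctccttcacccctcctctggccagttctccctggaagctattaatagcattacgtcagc
Chac1, chr2:119350992-119351241, + strand: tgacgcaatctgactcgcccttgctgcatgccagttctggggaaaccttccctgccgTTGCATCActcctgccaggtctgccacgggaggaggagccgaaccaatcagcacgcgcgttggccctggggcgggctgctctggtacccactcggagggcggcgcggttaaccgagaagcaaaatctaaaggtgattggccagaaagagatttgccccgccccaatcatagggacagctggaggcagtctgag
Herpud1, chr8:94386179-94386428, + strand: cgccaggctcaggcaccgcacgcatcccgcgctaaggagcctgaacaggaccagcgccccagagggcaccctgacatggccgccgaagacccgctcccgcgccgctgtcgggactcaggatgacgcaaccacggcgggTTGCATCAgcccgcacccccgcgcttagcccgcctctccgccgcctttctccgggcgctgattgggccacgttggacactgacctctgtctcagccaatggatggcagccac
A match describes these letters only and was not tested as a binding site.

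In the deposited values, chaperones, transporters and tRNA synthetases lay higher than Ctrl in both miR-17~92 columns, while the transcription factors and feedback genes of the PERK branch lay close to Ctrl or below it. Of the 43 genes, 40 reached the level filter, which is a mean over the columns at or above the median of all genes, 7.13. Vldlr, Fgf21 and Slc7a3 did not. In Med, 23 of the 40 were at least 2-fold higher than in Ctrl and 1 was at least 2-fold lower, where 34.9% of the 9969 genes past the filter were higher and 8.7% lower. In Hi, 21 were higher and 1 lower, against 33.5% and 8.4% of all genes. The median difference was 1.14 in Med and 1.04 in Hi on the log2 scale, and 0.42 and 0.39 over all genes. Both comparisons use the same Ctrl column. The filter uses all columns, so a gene that was low in Ctrl could pass through Med and Hi alone. Over all 43 genes 23 were 2-fold higher and 2 lower in Med, beside 18.3% and 16.3% of all 19938 genes.

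Scaling mattered for these counts. With quantile normalization 14 of the 40 were 2-fold higher and 3 lower in Med (all genes 25.6% and 17.6%), and 13 higher and 3 lower in Hi (25.2% and 16.6%). The median of all genes then moved to -0.05 in Med and -0.04 in Hi. Of all calls in Med 80.0% were higher in the deposited values and 59.3% after quantile normalization. Of the 40 genes, 12 were at least 2-fold higher in Med under each of 6 settings (the deposited values, 4 other scalings or centrings and another choice of probe set), and so was each of them in Hi. These were Atf6, Ern1, Asns, Cth, Psat1, Slc3a2, Slc38a2, Wars, Nars, Hspa5, Pdia6 and Dnajb9. Each of them has 1 probe set, so the choice of probe set could not change its value. Centring on all probe sets raised every difference from Ctrl, so it could not remove a higher call. Cbs alone was at least 2-fold lower in every setting. The share of all genes that passed in every setting was not counted, so these counts have no background beside them. In single settings, between 22.9% (centring on genes past the filter) and 42.1% (centring on all probe sets) of all genes were higher in Med.

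**Figure D1:**
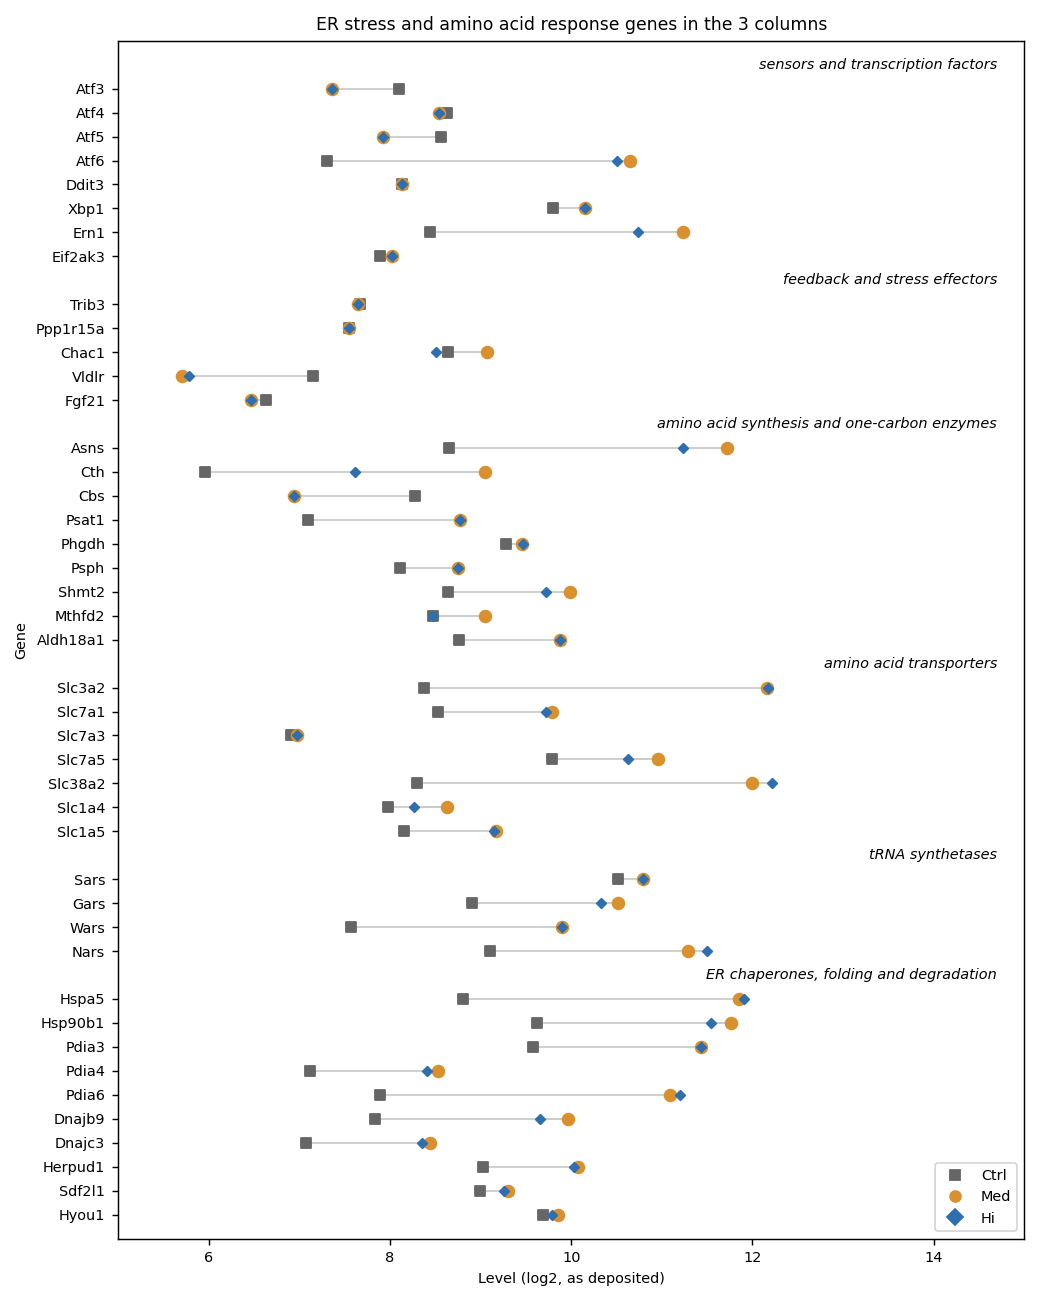
Deposited log2 level (horizontal axis) of each of the 43 genes (vertical axis, grouped by role) in Ctrl (grey squares), Med (orange circles) and Hi (blue diamonds), 1 column a group and no error. Hspa5 lies at 8.81 in Ctrl and at 11.85 and 11.91 in Med and Hi, while the marks of Ddit3 coincide at 8.13.

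Among the sensors, Atf6 and Ern1 were far above Ctrl and Eif2ak3 was not. Atf6 read 7.31, then 10.64 and 10.51, which is 10.1-fold higher in Med and 9.16-fold higher in Hi. Ern1, the kinase and nuclease that splices Xbp1, was at 8.44, 11.24 and 10.74, 6.96-fold and 4.93-fold higher. Both miR-17~92 columns were thus well above Ctrl for these 2 sensors. Eif2ak3, the eIF2 kinase of the ER, read 7.89 in Ctrl and 8.02 with the cluster at either level. Xbp1, whose spliced product turns on chaperone and degradation genes, was at 9.80, 10.15 and 10.15, a difference of 0.35 that turned to -0.80 in Med with quantile normalization.

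The transcription factors below the PERK branch were not higher than Ctrl in the deposited values. Atf4 itself was at 8.62 in Ctrl and 8.54 in Med and Hi, and the sign of this difference turned with centring on all probe sets (0.22 in Med). Ddit3, which encodes CHOP, had the identical value of 8.13 in every column. Atf3, a stress-induced repressor, read 8.10 in Ctrl and 7.36 in Med and Hi, a difference of -0.74 that kept its sign in all 6 settings. Atf5, whose translation also depends on eIF2, read 8.57 and then 7.92 in each miR-17~92 column, and likewise kept its sign. Med and Hi held identical values for each of these factors, and for Eif2ak3, Xbp1, Trib3 and Ppp1r15a. This held for 45.9% of all genes past the filter, and the step behind it was not given in the sources used here. For such genes Med and Hi cannot be counted as 2 separate readings. Of the 8 sensors and factors, 2 were 2-fold higher than Ctrl in each column and 0 lower. Over all genes past the filter 34.9% were higher in Med and 33.5% in Hi. The shares of all genes that were lower were 8.7% and 8.4%. With quantile normalization Atf3 (-1.06 in Med) and Atf5 (-1.23 in Med) were 2-fold lower. This made 2 of 8 lower in each column, as did centring on genes past the filter. With quantile normalization 17.6% of all genes were lower in Med and 16.6% in Hi, and 25.6% and 25.2% were higher. With only 8 genes, 2 higher and 2 lower were close to these shares.

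The feedback genes and stress effectors past the level filter stayed near Ctrl as well in the deposited values. Trib3, a pseudokinase that restrains ATF4, was at 7.67 in Ctrl and 7.65 in Med and Hi. Ppp1r15a (GADD34), which brings a phosphatase to eIF2, had the value 7.55 in all columns. Identical values in all columns were held by 2 of the 40 genes, Ddit3 and Ppp1r15a, and by 10.5% of all genes past the filter, so an identical value is common in this table. Chac1, which degrades glutathione, read 8.65, 9.07 and 8.50, with Med highest. The lipoprotein receptor gene Vldlr was at 7.16, 5.71 and 5.78, with Med and Hi within the receptor range, and the hormone gene Fgf21 was at 6.63, 6.46 and 6.46, with Ctrl within it. None of the 3 effectors past the filter was 2-fold apart from Ctrl.

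Enzymes of amino acid synthesis and one-carbon metabolism were divided. Of 9 measured, 5 were 2-fold higher in Med, 5 in Hi, and Cbs was lower in each, beside 8.7% and 8.4% of all genes. Over all genes past the filter 34.9% were higher in Med and 33.5% in Hi. With quantile normalization 3 of the 9 were higher in each column, the losses being Shmt2 and Aldh18a1. The shares of all genes were then 25.6% and 25.2%. Asns, which makes asparagine, read 8.65, 11.72 and 11.24, 8.40-fold and 6.02-fold higher. Cth, which makes cysteine from cystathionine, was at 5.96, 9.05 and 7.61. Its Ctrl level was within the receptor range, so the size of its difference from Ctrl is uncertain. Cbs, the enzyme just before Cth in the same pathway, went the other way, from 8.28 in Ctrl to 6.94 in Med and Hi alike.

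The serine pathway enzymes did not move as a block. Phgdh, its first step, was at 9.28, 9.46 and 9.46, and with quantile normalization its difference in Med was -0.81. Psat1, the next, read 7.10 in Ctrl and 8.77 in Med and Hi, 3.19-fold higher. Psph, the last, was at 8.12 in Ctrl and 8.75 in Med and Hi. The mitochondrial folate enzymes differed too. Shmt2 was at 8.64, 9.99 and 9.72, under 2-fold in Med after quantile normalization (0.50). Mthfd2 read 8.48 in Ctrl and Hi and 9.04 in Med. Aldh18a1, which starts proline synthesis, read 8.76 in Ctrl and 9.87 with the cluster.

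Slc3a2 and Slc38a2 had the widest differences from Ctrl of the whole set in the deposited values. Slc3a2, the heavy chain that carries several amino acid transporters to the surface, read 8.37, 12.16 and 12.17, 13.7-fold and 13.9-fold higher. Slc38a2 (SNAT2), a neutral amino acid transporter and a well-known ATF4 target, was at 8.30, 11.99 and 12.21, 13.0-fold and 15.1-fold higher. The light chain Slc7a5 (LAT1), the partner of Slc3a2, was at 9.79, 10.96 and 10.62, with a difference in Med of 1.18 as deposited and -0.03 after quantile normalization. A smaller difference was thus seen for the light chain, and its direction depended on the scaling.

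Of the other transporters, the cationic amino acid carrier Slc7a1 was at 8.53, 9.79 and 9.72 and the glutamine carrier Slc1a5 at 8.15, 9.17 and 9.15. The neutral carrier Slc1a4 was at 7.97, 8.62 and 8.27. Slc7a3, also a cationic carrier, was under the level filter at 6.91, 6.98 and 6.98. All 6 transporters past the filter had higher deposited values in Med and in Hi than in Ctrl. By 2-fold, 5 were higher in Med and 3 in Hi. Of all genes past the filter 62.7% had higher values in Med and 62.5% in Hi, and 34.9% and 33.5% by 2-fold. Slc1a5 is at the 2-fold limit, with folds of 2.02 in Med and 1.99 in Hi. With quantile normalization only Slc3a2 and Slc38a2 were 2-fold higher, 2 of 6 in each column, beside 25.6% and 25.2% of all genes. Slc7a1 (0.45) and Slc1a5 (0.42) were then under 2-fold in Med, and Slc1a4 turned to -0.09 in Hi.

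Synthetases that charge tRNAs had higher deposited values than Ctrl in 4 of 4 cases, 3 of them by 2-fold in each column. Of all genes past the filter 62.7% had higher values in Med and 62.5% in Hi. By 2-fold the shares were 34.9% and 33.5%. Wars and Nars alone kept the 2-fold difference with quantile normalization. Wars, for tryptophan and also known as an interferon-gamma-induced gene, read 7.57 in Ctrl and 9.90 in Med and Hi. Nars, for asparagine, was at 9.10, 11.29 and 11.50. Gars, for glycine, was at 8.91, 10.51 and 10.33, and its difference in Med was 0.63 with quantile normalization. Sars, for serine, read 10.51 in Ctrl and 10.79 in the others, a difference of 0.27 whose direction turned with quantile normalization (-0.99 in Med), loess (-0.68) and centring on genes past the filter (-0.32). Of 14 further synthetases of the wider pathway list past the filter, 8 were 2-fold higher in Med and 8 in Hi, and 0 lower. With quantile normalization 7 were higher in each column, beside 25.6% of all genes in Med and 25.2% in Hi. Those with the largest differences were Rars (7.77, 11.56 and 11.56), Qars (6.61, 10.56 and 10.03), Kars (8.50, 11.37 and 11.37) and Iars (8.16, 10.67 and 10.55), with the Ctrl level of Qars within the receptor range.

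Among the ER folding genes 8 of 10 were 2-fold higher than Ctrl in each column. Over all genes past the filter the shares were 34.9% in Med and 33.5% in Hi. With quantile normalization 5 of the 10 were higher in Med and 4 in Hi, beside 25.6% and 25.2% of all genes. The median of the 10 genes lay 1.63 above Ctrl in Med and 1.56 above it in Hi. The 4 genes that hold the ER stress element printed above were among them. Hspa5 (BiP), the main Hsp70 chaperone of the ER, was at 8.81, 11.85 and 11.91, 8.23-fold and 8.58-fold higher. Pdia6, a disulfide isomerase, was at 7.89, 11.10 and 11.20, 9.25-fold and 9.94-fold higher. Hsp90b1 (GRP94) was at 9.62, 11.77 and 11.54, and under 2-fold in Med after quantile normalization (0.94). Dnajc3, a co-chaperone of BiP, was at 7.07, 8.45 and 8.35, and its 2 probe sets held identical values, so they are no repeat measurement.

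The other chaperones varied more. Dnajb9, a co-chaperone that promotes degradation, was at 7.83, 9.96 and 9.66. The isomerase Pdia3 read 9.58 in Ctrl and 11.43 in each of the others, and was under 2-fold in Med with quantile normalization (0.67). Pdia4 averaged 7.12, 8.53 and 8.41, but its probe sets disagreed: 1 read 8.72, 11.51 and 11.26, and the other 5.51, 5.56 and 5.56. Herpud1, which helps degrade ER proteins, was at 9.03, 10.07 and 10.03, a 2.06-fold and 2.0-fold difference that was 0.07 on the log2 scale in both columns after quantile normalization. Sdf2l1 (9.0, 9.30 and 9.25) and the large chaperone Hyou1 (9.68, 9.86 and 9.79) were under 2-fold apart.

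**Figure D2:**
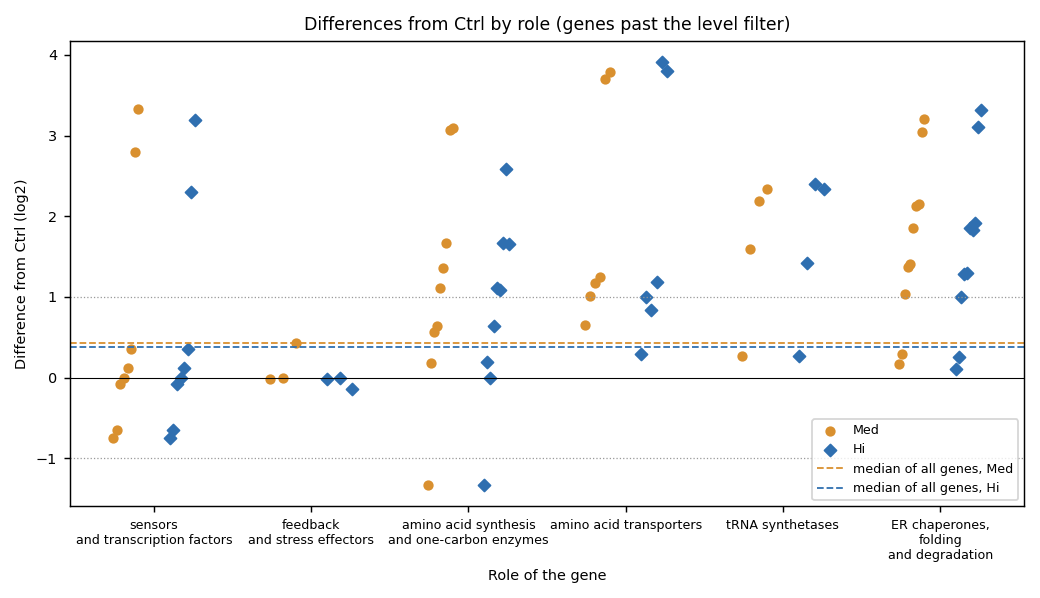
Log2 difference from Ctrl (vertical axis) for the 40 genes past the level filter by role (horizontal axis), in Med (orange circles) and Hi (blue diamonds), with the medians of all genes at 0.42 and 0.39 (dashed) and 2-fold limits (dotted). Of 10 ER folding genes 8 lie above the upper limit in each column, and 2 of 8 sensors and factors do.

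Among the listed genes, the motif groups lay apart in the deposited values too. The 4 genes with the ER stress element were between 1.37 (Dnajc3) and 3.21 (Pdia6) above Ctrl in Med, and between 1.28 and 3.31 in Hi. The 6 with the CHOP-ATF4 core ran from -1.45 (Vldlr) to 1.04 (Herpud1) in Med and from -1.38 to 1.0 in Hi. Of these, Vldlr and Fgf21 were under the level filter, with Vldlr within the receptor range in Med and Hi. Past the filter the lowest difference was -0.74 (Atf3) in each column. No gene of the second group differed from Ctrl by as much as any of the first on the higher side. The groups are small, rest on exact letters, and the difference between them was not tested. Searched genes with neither match ran from below Ctrl (Cbs) to far above it (Asns and Slc38a2). Outside the list, genes past the filter with the ER stress element had median differences of 0.79 in Med and 0.40 in Hi. Those with the CHOP-ATF4 core had 0.65 and 0.26.

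**Figure D3:**
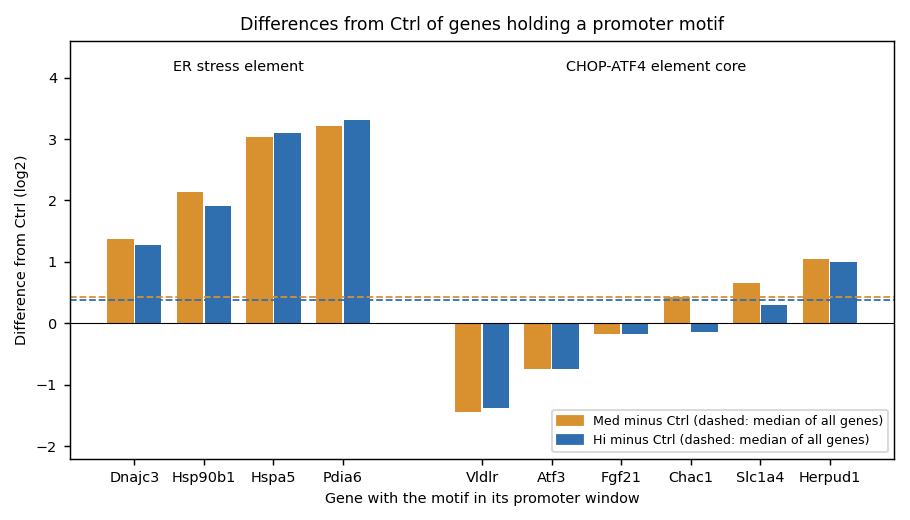
Log2 difference from Ctrl (vertical axis, bars from 0) for the listed genes whose promoter window holds the ER stress element (left) or the CHOP-ATF4 element core (right). Med is orange and Hi blue, and the medians of all genes past the level filter are dashed. Vldlr and Fgf21 are under this filter. The left group lies between 1.28 and 3.31, and the right between -1.45 and 1.04.

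The wider pathway list, also chosen with earlier results known, held 75 further genes, of which 70 were matched and 69 passed the filter. In Med 32 of the 69 (46.4%) were 2-fold higher than Ctrl and 2 lower, and in Hi 30 (43.5%) and 2, beside the 34.9% and 33.5% of all genes that were higher. With quantile normalization 21 were higher and 5 lower in Med, and 24 and 5 in Hi. Of all genes 25.6% were then higher in Med and 25.2% in Hi. In the ER group 12 of 23 (52.2%) were higher and 1 lower in Med. With quantile normalization 6 were higher in Med, near the share of all genes, and 3 lower. Furthest from Ctrl in the deposited values were the lectin chaperone Canx (8.97, 12.84 and 12.84) and the translocon gene Sec61a1 (9.36, 12.18 and 12.17). The isomerase P4hb (9.28, 11.94 and 12.05) and the degradation adaptor Sel1l (7.85, 10.42 and 10.62) came next. Of the eIF2 kinases, phosphatase and sensors, 5 of 13 (38.5%) were higher in Med, a share near that of all genes. With quantile normalization 3 were higher in Med. Mbtps1, the protease that cuts ATF6, was at 7.11, 10.69 and 10.68, the interferon-induced kinase Eif2ak2 at 4.98, 9.31 and 8.69 (Ctrl within the receptor range), and the eIF2B subunits Eif2b2 at 8.05, 9.60 and 9.96 and Eif2b5 at 7.42, 8.95 and 8.95. The other ATF4 or CHOP associated genes were also near the share of all genes, with 7 of 19 (36.8%) higher and 1 lower in Med. With quantile normalization 5 were higher and 2 lower in Med. Those furthest from Ctrl included Ero1l, the ER oxidase gene now named Ero1a, at 7.84, 12.25 and 11.86. Tnfrsf10b, a death receptor gene, was at 7.47, 10.36 and 10.43, and the aspartate transaminase Got1 went from 7.73 in Ctrl to 10.50 in each of the others.

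Hi against Med compares the levels of the cluster without the Ctrl column in the difference. Here Cth was the only gene of the set at least 2-fold apart, at 9.05 in Med and 7.61 in Hi, a fold of 0.368. None of the 40 was 2-fold higher, where 0.682% of all genes were, and 1 was lower, where 0.863% were. A difference as low as that of Cth, -1.44, was held by 0.241% of all genes past the filter. It was between -1.48 and -1.23 in the 6 settings.

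Several other genes of both responses were lower in Hi than in Med by less than 2-fold. Chac1 differed by -0.57, Mthfd2 by -0.56, Ern1 by -0.50, Asns by -0.48, Slc1a4 by -0.36, Slc7a5 by -0.34, Dnajb9 by -0.30 and Shmt2 by -0.27. A difference as low as that of Chac1 was held by 3.71% of all genes, and as low as that of Asns by 4.90%. Of the 40 genes 19 were lower, 6 higher and 15 identical in Hi, which is 47.5%, 15% and 37.5%. All genes past the filter were lower in 31.3%, higher in 22.8% and identical in 45.9%. The median difference was 0.00 for the set and for all genes. Under all 6 settings 15 genes remained lower and 4 higher, and the share of all genes that did so was not counted. The higher ones were Slc38a2 (0.22), Nars (0.21), Pdia6 (0.10) and Hspa5 (0.06) in the deposited values. For a gene with 1 probe set, the choice of probe set could not change the sign. Centring on all probe sets lowered every difference of Hi from Med, so it could not turn a lower one.

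By role, the sensors and factors held identical values in Med and Hi in 6 of 8 cases, with Ern1 and Atf6 (-0.14) lower. Enzymes were lower in 4 of 9 and identical in 4, transporters lower in 4 of 6 and higher in 2, and ER folding genes lower in 7 of 10. Most differences of the ER folding genes were small, with Dnajb9 and Hsp90b1 (-0.23) the lowest. In the wider list no gene was 2-fold apart between Hi and Med, and 27 of 69 were lower, 16 higher and 26 identical. Among its other ATF4 or CHOP associated genes 10 of 19 were lower and 3 higher, with Bcat1, which transaminates branched-chain amino acids, at 7.36, 10.13 and 9.18.

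**Figure D4:**
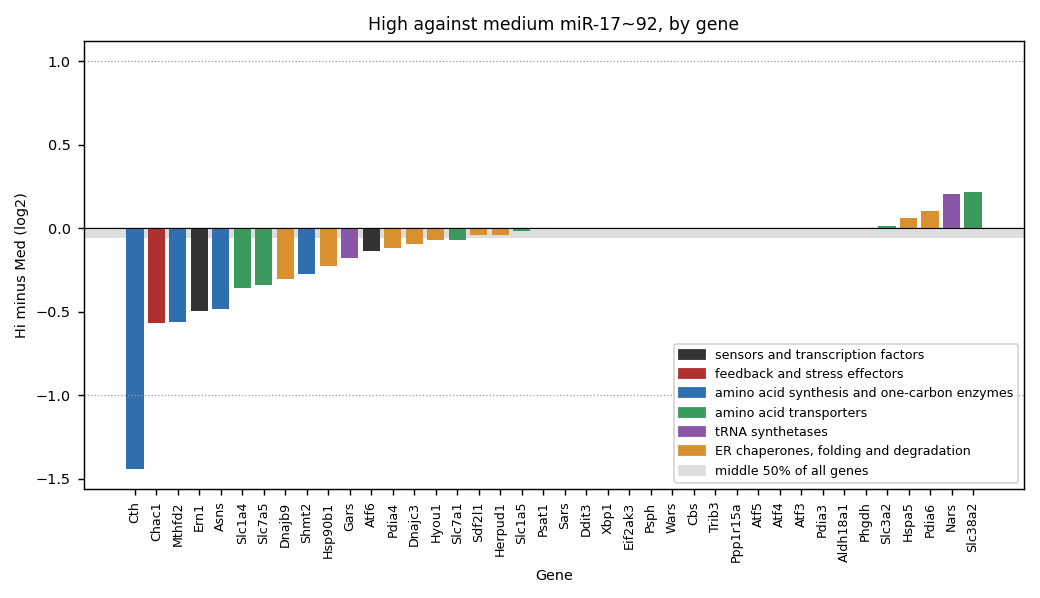
Log2 difference of Hi minus Med (vertical axis, bars from 0) for the 40 genes past the level filter (horizontal axis, ordered by difference and coloured by role), with the middle 50% of all genes in grey and 2-fold limits dotted. Cth at -1.44 is past the lower limit, and 15 genes have no bar because their values are identical.

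A graded order of Ctrl, Med and Hi was uncommon. Among the 21 members past 2-fold in Hi over Ctrl, Med lay between in 5, was identical to Hi in 4 and lay beyond Hi in 12. For all 3335 such genes the counts were 940, 765 and 1614. Slc38a2, Slc3a2, Nars, Hspa5 and Pdia6 had Med between, and Cth, Asns and Ern1 had Med furthest beyond Hi. For Slc3a2 the step from Med to Hi was only 0.01 and turned to -0.06 with loess. For Hspa5 it was 0.06, and 0.02 with loess.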

How the data were processed

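RNA of 3 groups of CT26 cells was measured on an Affymetrix array from 100 ng of total RNA, per the labels' protocols. The deposited log2 values (35556 probe sets, 2.13 to 14.8) are called normalized, per the labels. Affymetrix Expression Console and GCRMA are named, per the submitters' processing notes, with no role or version. The log2 base was taken from the range of values. Signal over background per probe set was not given in the sources used here, and 1 column a group limits the precision. No column was left unmapped (0).

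Symbols came from GEO's platform annotation, updated by gene number to RefSeq GRCm38.p6 for 21698 of 21789 single-gene probe sets. Probe sets of the same gene were averaged, which applied to 999 genes. Probe sets of several genes (1621) or none (12146) were left out. Genes passed the filter at a mean of 7.13 or more. A 2-fold difference was counted, and 1.5-fold tried. Values within 1e-09 were called identical. Alternatives were centring, quantile normalization, cyclic loess (limma 3.58.1, R 4.3.3), other filters and the highest probe set per gene. Counting was tested on simulated data. Python 3.11.15 with pandas 2.3.3 was used. The members and lists were chosen with earlier results of these data known. All 45 members are named, and of the wider list the 4 genes of each role past the filter with the largest mean absolute difference from Ctrl, besides any 2-fold apart between Hi and Med.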

Additional observations from a re-analysis of the deposited data

Results flagged for a closer look

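Chac1 lay on opposite sides of Ctrl in the deposited values, with log2 differences of 0.43 in Med and -0.14 in Hi. With 1 column a group this was not tested. Under each of the 4 other scalings both differences had the same sign: 0.72 and 0.15 with centring on all probe sets, -0.33 and -0.79 with quantile normalization, -0.16 and -0.64 with loess, and -0.17 and -0.68 with centring on genes past the filter.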

How the results depend on the processing

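Leaving out replicates was not possible with 1 column a group. No paired analysis was possible because each group has 1 column. Members 2-fold higher in Med than Ctrl numbered 23 as deposited, 14 with quantile normalization, 15 with loess and 15 with centring on genes past the filter (added after seeing the data), and in Hi 21 became 13 with quantile normalization. Members 2-fold lower numbered 1 in each column, 3 with quantile normalization, with centring on genes past the filter and at 1.5-fold, 2 with no filter and 0 with a filter on Med and Hi alone, which Cbs does not pass. The median difference from Ctrl was 1.44 in Med and 1.33 in Hi with centring on all probe sets, 0.33 and 0.30 with quantile normalization, 0.47 and 0.35 with loess, 0.55 and 0.50 with centring on genes past the filter, and 1.04 and 1.0 with no filter. For Hi against Med it was -0.01, 0.01, -0.02 and 0.06 under the 4 scalings in that order. Slc7a5 in Med against Ctrl turned to -0.029 with quantile normalization. No other difference of 2-fold or more changed sign in the settings run for single genes. Smaller ones did: of the 40 genes, 13 in Med against Ctrl, 14 in Hi against Ctrl and 21 in Hi against Med did not keep 1 sign in all 6 settings. Counts by role and of the wider list were also run under the scalings, chosen after seeing the data. The 2-fold counts in Med against Ctrl that moved with quantile normalization stand in the report. Other counts that moved do not all stand there. The causes were not tested. Levels near the receptor range give no firm size of difference.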

Other observations

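Outside the listed genes, the ER stress element was in the promoter windows of 11 genes past the level filter, among them Canx, Calr, Creld2, Derl3 and Syvn1. Of these 11 genes, 5 were 2-fold higher in Med than in Ctrl, 5 in Hi, and 2 were lower in each, with median differences of 0.79 and 0.40. Over all genes past the filter the medians were 0.42 and 0.39. Of these, 34.9% were 2-fold higher in Med and 33.5% in Hi, and 8.7% and 8.4% were lower. All these counts are of the deposited values. The CHOP-ATF4 core was in the windows of 51 genes past the filter, of which 35.3% were 2-fold higher in Med, beside 34.7% of genes without it.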
